A study of Mus musculus with 4 samples.

Results

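The genes described here are 9 transporters of bile acids, organic anions and biliary phospholipid: the uptake carriers Slc10a1, Slco1a1, Slco1a4, Slco1b2 and Slco2b1, and the export pumps Abcb11, Abcb4, Abcc2 and Abcc3. They were chosen by name, and every probe set of the array whose only gene symbol was one of the 9 was taken. That gave 17 of the 45037 probe sets, for 9 of 18193 named genes. Of the 17, 15 reached the median signal of their array on at least 1 array, and all 9 genes were among the 12493 genes that entered the comparisons. The samples were livers of male mice in 4 groups with 1 array each. They crossed genotype, wild type (WT) or LASS2-/-, with diet, chow or high-fat diet (HFD). The chow held 10% and the high-fat diet 60% of calories from fat, and feeding began at 3 weeks of age. The age at collection, the way the LASS2 allele was made and whether each array read 1 animal or pooled ones are not stated in the labels. With 1 array per group, no value has an error between animals.

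Hepatocytes take bile acids up from blood through Slc10a1, which carries sodium with them, and through the sodium-independent organic anion carriers of the Slco family, which also take up bilirubin conjugates, steroid conjugates and drugs. Bile salts leave the cell into the bile canaliculus through Abcb11, conjugated organic anions through Abcc2, and Abcb4 moves phosphatidylcholine into the canalicular membrane, where it protects the duct from bile salts. Abcc3 sits on the blood side and returns conjugates to the circulation. The bile acid receptor FXR (Nr1h4), the xenobiotic receptors CAR (Nr1i3) and PXR (Nr1i2) and the oxidant sensor NRF2 (Nfe2l2) are known regulators of these genes. Several Slco genes are also sex-biased in mouse liver through the growth hormone pattern. LASS2, now named Cers2, is a ceramide synthase that makes ceramides with very long acyl chains.

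The signals were bright. Leaving out the 2% of probe sets at each end, the mean linear signal of the 4 arrays was 496.02 to 496.2. Scaling of each array to a common mean would give this likeness by itself, so it does not show that the arrays were comparable. The median log2 signal was 6.28 on LASS2-/- chow and 6.17 to 6.19 on the other arrays. Cers2 itself was not lower on both arrays labelled LASS2-/-: its log2 ratio of LASS2-/- over wild type was -0.15 for the chow pair and 0.07 for the high-fat pair, and which exons its probe set reads was not determined. "LASS2-/-" therefore stands below for the arrays labelled so. Hepatocyte markers were bright, with Alb between 15.02 and 15.27 log2. In whole liver, fewer cells of a type and less RNA per cell cannot be told apart. The spread used as a measuring stick below is the moderated standard deviation of a difference of 2 arrays. It comes mainly from how much the genotype ratios of like-bright genes differed between the diets. It was 0.105 to 0.288 log2 for the 9 genes and is not a spread between animals.

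On the high-fat diet arrays, 4 of the 9 transporters rose and 2 fell, whereas with the LASS2-/- label 2 fell and 0 rose. Abcc3, Abcb4, Abcc2 and Slco1a4 rose with diet, and Slco1a1 and Slc10a1 fell. Slco1a4 and Abcc3 fell with the LASS2-/- label. The counts come from limma's additive model of diet and genotype, at an adjusted p under 0.05 (Benjamini-Hochberg, all 12493 genes). Over all genes, 6.26% rose and 5.04% fell with diet, and 0.560% rose and 0.352% fell with genotype. The fit has 1 residual degree of freedom, and without a trend of variance on signal limma passed 0 of the 9 and 0 of all genes for either factor. Over 9 alternative settings, that one included, the diet call of Slco1a4 held in 2 and its genotype call in 6. The genotype call of Abcc3 held in 2 of 9. The log2 diet ratio of Slco1a4 was 1.37 in wild type and 0.11 in LASS2-/-. At an unadjusted p under 0.05, 5 of the 9 and 1294 of all genes differed by genotype, and 6 and 2971 by diet.

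**Figure D1:**
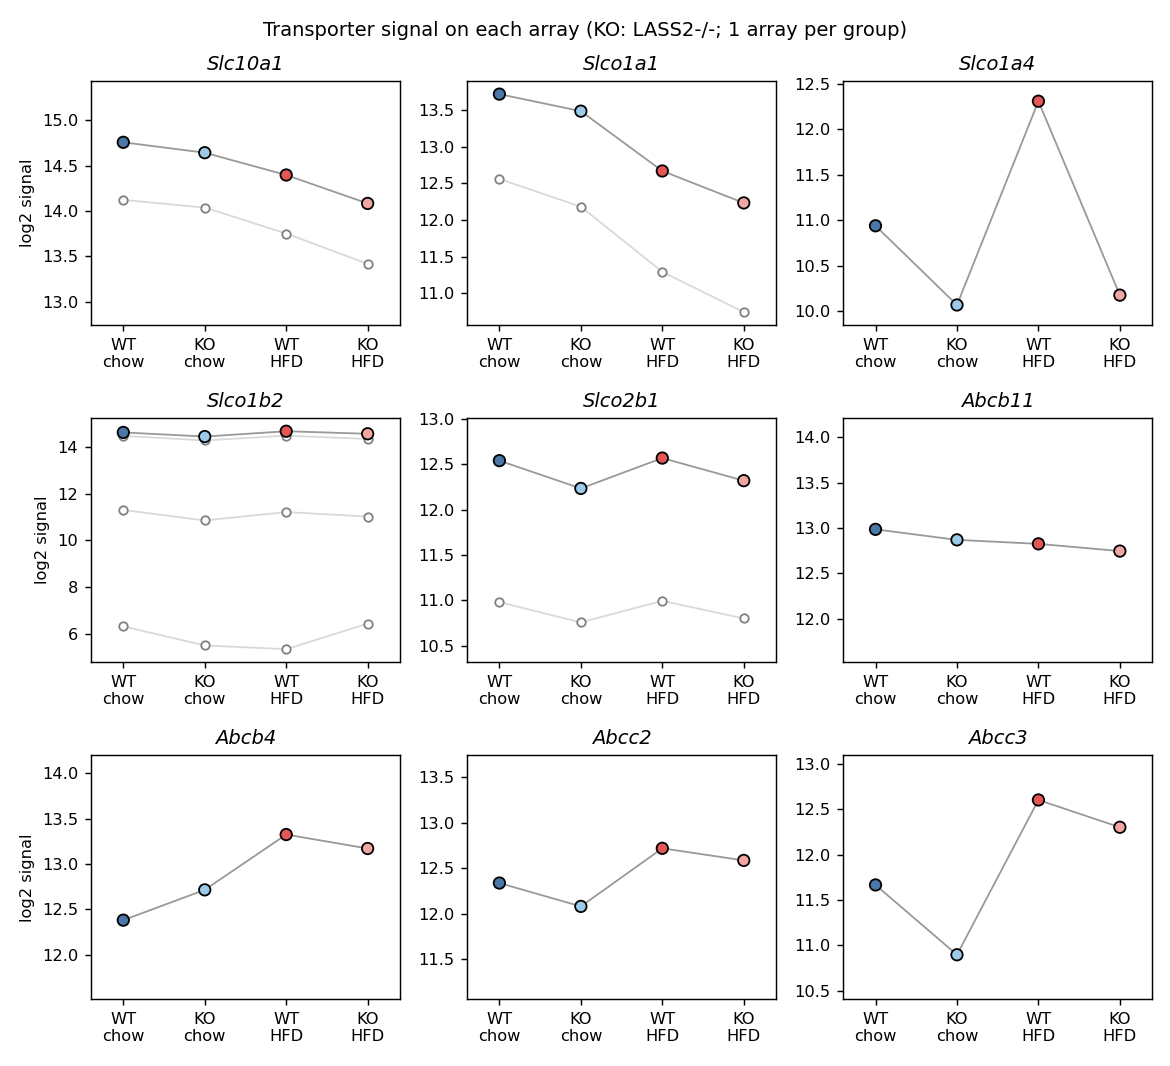
Log2 signal of the 9 transporters on the 4 arrays (KO: LASS2-/-; HFD: high-fat diet), 1 point per array. Filled points are the probe set that stands for the gene, open points the other probe sets that reached the array median on at least 1 array. Vertical ranges differ between panels. Slco1a4 stands highest on WT HFD at 12.31, and Slco1a1 falls from 13.72 on WT chow to 12.23 on LASS2-/- HFD.

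The promoter windows of these genes were searched for the letters of known receptor elements. RefSeq's GRCm38.p6 table, which gives 250 bases before to 50 after a start, held 11 windows for 8 of the 9 genes. FXR is known to bind inverted repeats of a hexamer spaced by 1 base. The repeat searched was GGNCA, any 1 base, and TGNCC, which reads the same on both strands. It was in the windows of Abcb11 and Slco1b2, and in 0.676% of all 32851 windows. Relative to the start its first base lay at -62 in Abcb11 and at -87 in Slco1b2. The spans of these genes over the arrays, 0.24 and 0.23 log2, were the smallest of the 9. A stricter form of the repeat, AGGTCA, any 1 base and TGACCT, was in 0 of the 11 windows and in 3 of all 32851. A match of letters is a description and shows no binding. The receptor hexamer AGGTCA, on either strand, was in windows of Abcb11, Slco1b2, Slco1a1, Slc10a1 and Abcc2, and in 16.3% of all windows. It overlaps the repeat in the first 2. Shown are the windows with the repeat, those of Slco1a1 and Slc10a1, which fell together with diet, and that of Slco1a4, with the span of 2.24. Capitals mark the repeat or the hexamer, and each is written 5′ to 3′ along the gene. The coordinates are chr2:69342567-69342866 (minus strand), chr6:141629268-141629567 (plus), chr6:141946913-141947212 (minus), chr12:80968030-80968329 (minus, 1 of 2 starts of this gene) and chr6:141856171-141856470 (minus).
Abcb11: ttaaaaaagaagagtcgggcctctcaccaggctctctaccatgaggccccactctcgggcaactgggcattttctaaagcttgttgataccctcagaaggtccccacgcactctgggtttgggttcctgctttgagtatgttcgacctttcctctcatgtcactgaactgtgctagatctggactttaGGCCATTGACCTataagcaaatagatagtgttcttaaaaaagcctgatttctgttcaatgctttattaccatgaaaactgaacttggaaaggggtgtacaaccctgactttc
Slco1b2: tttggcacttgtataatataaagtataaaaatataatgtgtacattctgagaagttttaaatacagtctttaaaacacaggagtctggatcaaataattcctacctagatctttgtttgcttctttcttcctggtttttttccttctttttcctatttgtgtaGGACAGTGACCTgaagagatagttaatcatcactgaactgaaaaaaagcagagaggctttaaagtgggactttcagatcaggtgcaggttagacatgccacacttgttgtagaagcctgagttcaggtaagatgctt
Slco1a1: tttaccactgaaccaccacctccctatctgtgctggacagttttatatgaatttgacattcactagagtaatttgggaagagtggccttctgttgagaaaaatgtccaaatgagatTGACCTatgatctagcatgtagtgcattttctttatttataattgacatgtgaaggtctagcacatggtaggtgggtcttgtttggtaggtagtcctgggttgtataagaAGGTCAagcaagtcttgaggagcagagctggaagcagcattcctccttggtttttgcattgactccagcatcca
Slc10a1: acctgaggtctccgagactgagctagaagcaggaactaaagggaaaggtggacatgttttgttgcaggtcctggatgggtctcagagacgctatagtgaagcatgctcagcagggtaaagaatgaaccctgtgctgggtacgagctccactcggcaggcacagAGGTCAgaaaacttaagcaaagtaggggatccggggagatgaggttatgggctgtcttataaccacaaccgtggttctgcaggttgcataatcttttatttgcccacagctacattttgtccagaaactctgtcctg
Slco1a4: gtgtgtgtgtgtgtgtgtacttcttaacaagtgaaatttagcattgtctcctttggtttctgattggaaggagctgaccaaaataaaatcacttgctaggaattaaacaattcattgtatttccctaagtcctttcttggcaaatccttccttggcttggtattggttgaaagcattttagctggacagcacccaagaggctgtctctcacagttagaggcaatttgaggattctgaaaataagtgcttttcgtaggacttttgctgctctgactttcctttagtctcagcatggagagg

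In the Slco1a1 window the hexamer occurs once on each strand, at -24 and -134. Neither motif was found in the Slco1a4 window. In all, 17 motifs were searched, those above included. Among them were the STAT5 site TTCNNNGAA, found in windows of Slco1b2, Slco2b1 and Slc10a1 (8.30% of all windows), and the antioxidant element core TGACNNNGC, found in that of Abcc2 (12.4%). The motifs were picked after the expression values were known. Slco1a1, Slco1a4 and Slco1b2 lie on the same chromosome, 6, and their spans over the arrays were 1.49, 2.24 and 0.23 log2.

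Among the uptake carriers, Slco1a1, an organic anion carrier that is higher in male than female mouse liver, fell most with diet. Its log2 signal was 13.72 on WT chow, 13.49 on LASS2-/- chow, 12.67 on WT HFD and 12.23 on LASS2-/- HFD. Both chow arrays lay above both high-fat arrays, and each step in this order was larger than the measuring stick of 0.126. In wild type the high-fat signal was 2.07-fold lower, and in LASS2-/- it was 2.39-fold lower. Of 12493 genes, 135 had a lower diet ratio in wild type and 95 in LASS2-/-. With diet Slco1a1 fell by 1.15 ± 0.09 log2 (moderated SE, limma adjusted p = 1.51e-06). The second probe set gave the same order, with diet ratios of -1.27 in wild type and -1.44 in LASS2-/-. For the first probe set the genotype ratios were -0.23 (chow) and -0.44 (high-fat diet), and the mean effect did not pass (-0.34 ± 0.09, limma adjusted p = 0.124).

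Slc10a1, the sodium-dependent uptake carrier of conjugated bile acids, followed the same order of arrays. Its log2 signal was 14.76 on WT chow, 14.64 on LASS2-/- chow, 14.40 on WT HFD and 14.08 on LASS2-/- HFD. Chow and high-fat arrays did not overlap, and the LASS2-/- array was the lower of the pair on each diet. In wild type the high-fat signal was 1.28-fold lower, and in LASS2-/- it was 1.47-fold lower. With diet Slc10a1 fell by 0.46 ± 0.08 (limma adjusted p = 0.00163), and its second probe set had ratios of -0.37 and -0.62. The genotype ratios, -0.11 (chow) and -0.31 (high-fat diet), gave a mean of -0.21 ± 0.08 (limma adjusted p = 0.327). With quantile normalization the LASS2-/- diet ratio was -0.38 in place of -0.56 log2. The probe set was brighter than at least 99.2% of all probe sets on each array. Among hepatocyte markers, 3 of 11 also fell with diet, Cps1 of the urea cycle, the fibrinogen chain Fgb and the transcription factor Hnf4a, and 0 rose. The Hnf4a call held in 3 of 7 alternatives with a trend. The hepatocyte list had median diet ratios of -0.03 in wild type and -0.25 in LASS2-/-, and its part in the result was not tested.

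Slco1a4, an organic anion and cardiac glycoside carrier that CAR and PXR ligands are known to raise, had the widest span of the 9, 2.24 log2. Its log2 signal was 10.94 on WT chow, 10.07 on LASS2-/- chow, 12.31 on WT HFD and 10.18 on LASS2-/- HFD. The WT HFD array stood 1.37 above WT chow, and both LASS2-/- arrays lay below both wild type arrays. The LASS2-/- arrays differed from each other by 0.11, less than the measuring stick of 0.288. The LASS2-/- signal was 1.83-fold lower on chow, and 4.39-fold lower under high-fat feeding. On high-fat diet 0 of 12493 genes had a lower genotype ratio, and on chow 107 had. With the floor at the 25th percentile of each array, which also admits dimmer genes, 40 of 16898 were lower on high-fat diet, and with each probe set counted by itself 2 of 22081 were. In wild type the high-fat signal was 2.59-fold the chow signal, and in LASS2-/- it was 1.08-fold.

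Slco1a4 fell with the LASS2-/- label, with a mean effect of -1.50 ± 0.20 (limma adjusted p = 0.00267), and rose with diet by 0.74 ± 0.20 (limma adjusted p = 0.0311). The gene's own residual standard deviation was 0.63, against 0.20 after moderation, and the difference of its genotype ratios, high-fat diet minus chow, was -1.26. Among all genes, 4.31% had genotype ratios at least 2-fold apart between diets, and Slco1a4 was the 1 transporter among them. With robust moderation the adjusted p was 0.667 for genotype and 0.593 for diet, and with quantile normalization 0.0529 and 0.0965. Over the 9 alternatives it ran from 0.00176 to 0.742 for genotype and from 0.0237 to 0.593 for diet, and the call was lost in 3 and 7 of them. The gene has 1 probe set, so no other reading of it was at hand. Of the 7 lymphocyte markers that entered, the antibody genes Ighm and Jchain were also highest on WT HFD. Ighm read 12.41 there and 10.87 to 10.96 on the other arrays, and Jchain read 9.73 against 8.28 to 8.47. They raised the summed linear signal of the list to 7568 against 3452 to 4093, whereas the list's median log2 signal was 7.11 on WT chow, 7.32 on LASS2-/- chow, 6.86 on WT HFD and 6.60 on LASS2-/- HFD. The T cell gene Cd3g read 7.11 on WT chow and 5.16 on WT HFD, so the list did not move as a whole. None of its genes with a probe set was at 0, and the part of the antibody genes in the Slco1a4 result was not tested.

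Slco1b2, the main sodium-independent uptake carrier of mouse hepatocytes, was nearly level. Its log2 signal was 14.63 on WT chow, 14.45 on LASS2-/- chow, 14.68 on WT HFD and 14.57 on LASS2-/- HFD, a span of 0.23. Neither effect passed (genotype -0.14 ± 0.07, limma adjusted p = 0.569, diet 0.08 ± 0.07, adjusted p = 0.555). Another 2 bright probe sets had genotype ratios of -0.20 and -0.45 on chow and -0.14 and -0.19 on high-fat diet. The remaining 2 were dim and differed in direction from these on high-fat diet (1.10 and 1.01). Their mean with the rest turned the genotype effect to 0.04 and the diet effect to -0.03. Slco2b1, a broad carrier of steroid sulfates, read 12.54 on WT chow, 12.23 on LASS2-/- chow, 12.57 on WT HFD and 12.32 on LASS2-/- HFD. Both wild type arrays lay above both LASS2-/- arrays, and the diets overlapped. Its genotype effect was -0.28 ± 0.09 (limma adjusted p = 0.246) and its diet effect 0.06 ± 0.09 (adjusted p = 0.767). A second bright probe set read the genotype ratios as -0.22 and -0.19, and the third was below the array median on all 4 arrays.

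Among the export pumps of the canaliculus, Abcb11, the bile salt export pump, was also nearly level. It read 12.99 on WT chow, 12.87 on LASS2-/- chow, 12.83 on WT HFD and 12.75 on LASS2-/- HFD. No step in this order exceeded the measuring stick of 0.122. Its genotype effect was -0.10 ± 0.09 (limma adjusted p = 0.793) and its diet effect -0.14 ± 0.09 (adjusted p = 0.361). These p-values do not show that the level was the same.

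Abcb4, the phosphatidylcholine translocator, rose with diet. It read 12.38 on WT chow, 12.71 on LASS2-/- chow, 13.32 on WT HFD and 13.17 on LASS2-/- HFD, so both high-fat arrays lay above both chow arrays. In wild type the high-fat signal was 1.92-fold higher, and in LASS2-/- it was 1.37-fold higher. The mean diet effect was 0.70 ± 0.11 (limma adjusted p = 0.000691). Its genotype ratio was 0.33 on chow, the 1 positive value among the 9 genes there, and -0.15 under high-fat feeding. Abcb1a, a drug efflux pump of the same family, rose with diet too, with log2 ratios of 1.32 and 0.67 (mean 0.999 ± 0.22, limma adjusted p = 0.0084).

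Abcc2, the canalicular pump of glutathione and glucuronide conjugates, read 12.34 on WT chow, 12.08 on LASS2-/- chow, 12.72 on WT HFD and 12.59 on LASS2-/- HFD. The high-fat arrays again lay above the chow arrays, and LASS2-/- was the lower on each diet. Abcc2 rose with diet by 0.44 ± 0.09 (limma adjusted p = 0.00602), 1.30-fold in wild type and 1.42-fold in LASS2-/-. The genotype effect of -0.20 ± 0.09 did not pass (limma adjusted p = 0.493). Its single probe set ends in _s_at, a suffix for probe sets that match several transcripts.

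Abcc3, the pump that returns conjugates to blood, moved with both factors. It read 11.67 on WT chow, 10.90 on LASS2-/- chow, 12.60 on WT HFD and 12.30 on LASS2-/- HFD. Both high-fat arrays lay above both chow arrays, and every step exceeded the measuring stick of 0.164. In wild type the high-fat signal was 1.91-fold higher, in LASS2-/- it was 2.65-fold higher, and Abcc3 rose with diet by 1.17 ± 0.12 (limma adjusted p = 1.35e-05). The LASS2-/- signal was 1.70-fold lower on chow, and 1.23-fold lower under high-fat feeding. With the label Abcc3 fell by 0.53 ± 0.12 (limma adjusted p = 0.0474). This genotype call was lost with 7 of 9 alternative settings, among them quantile normalization (adjusted p = 0.166) and equal array medians (adjusted p = 0.193), with a range of 0.039 to 0.742 over all 9. Cholangiocytes also express Abcc3. Of 10 cholangiocyte markers 5 entered, with a summed linear signal of 525 to 670 over the 4 arrays and 0 passing for either factor, and none with a probe set was at 0.

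Seen by comparison, the diet ratios placed Slco1a4 and Slco1a1 at least 2-fold apart in wild type, and Abcc3 and Slco1a1 in LASS2-/-. In wild type 1 of the 9 was higher, against 2.13% of all genes, and 1 lower, against 1.24%. In LASS2-/- 1 of the 9 was higher, against 3.11% of all genes, and 1 lower, against 1.89%. In both genotypes 6 of the 9 ratios were above 0 and 3 below. The 3 negative ones were Slc10a1, Slco1a1 and Abcb11 in wild type and again in LASS2-/-. The median of the 9 was 0.05 in wild type and 0.11 in LASS2-/-, against 0.02 and -0.01 over all genes. Values were raised to the array median before ratios were taken. Genes under it on both arrays therefore carry a fixed ratio, 0.02 in wild type and -0.08 in LASS2-/-, which enters the medians over all genes. Without that step, the mean diet effect had a median of 0.08 for the 9 and 0.02 over all genes. The diet ratios of the genotypes share no array. Stellate cell and fibroblast markers moved with diet as well. Of 11 measured, 3 rose, the matrix genes Col3a1 (1.44), Lum (0.61) and Dcn (0.27), and 1 fell, Des. Their summed linear signal was 19336 on WT chow, 19190 on LASS2-/- chow, 25550 on WT HFD and 24068 on LASS2-/- HFD, with none at 0. Their part in the transporters' diet ratios was not tested. The diet call of Dcn held in 2 of 7 alternatives with a trend.

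**Figure D2:**
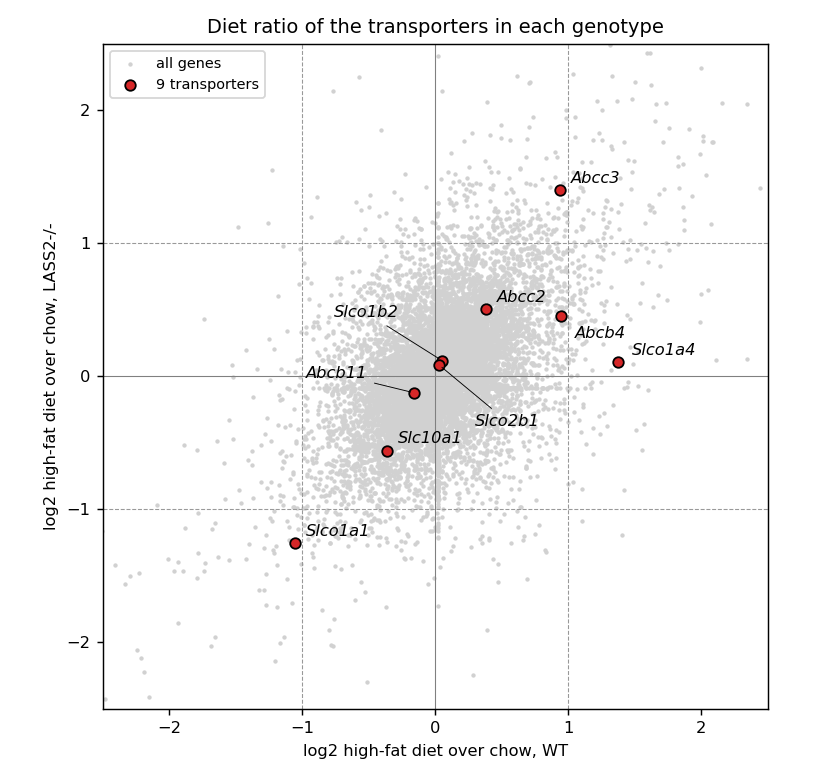
Log2 ratio of high-fat diet over chow in wild type (horizontal) and LASS2-/- (vertical), for the 9 transporters (red) and all genes that entered (grey, points beyond the axes not shown). Dashed lines mark 2-fold. Slco1a1 lies beyond the line in both genotypes, at -1.05 and -1.26, and Slco1a4 at 1.37 in wild type and 0.11 in LASS2-/-.

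The genotype ratios were small apart from Slco1a4 on both diets and Abcc3 on chow, at -0.77, but nearly all had one sign. On high-fat diet the ratio of Abcc3 was -0.30, beside -0.44 for Slco1a1 and -0.31 for Slc10a1. On chow 0 of the 9 were at least 2-fold apart, against 1.58% of all genes, and on high-fat diet 1 was, against 1.96%. On chow 8 of 9 were below 0, where 45.4% of all genes were, and on high-fat diet 9 of 9, where 45.7% were. The median of the 9 was -0.23 for chow and -0.25 for high-fat feeding, against 0.03 and 0.00 over all genes. After scaling the arrays to the same median, these values for chow were -0.34 for the 9 and -0.07 for all genes. Values were raised to the array median before ratios were taken, and none of the 9 was under it. Genes under it on both arrays carry a fixed ratio, 0.10 for chow and 0.002 for high-fat diet, counted as above 0. The shares and medians over all genes in part reflect this. Without that step, the mean genotype effect had a median of -0.21 for the 9 and 0.01 over all genes. The 9 genes share hepatocytes as their main source, so these are not independent readings. Macrophage and Kupffer cell markers had median genotype ratios of 0.24 (chow) and 0.61 (high-fat diet), with 3 of 14 rising (Marco, Mpeg1 and Lyz2) and 1 falling (Cd163). Their summed linear signal was 24819 on WT chow, 30610 on LASS2-/- chow, 24738 on WT HFD and 37512 on LASS2-/- HFD, with none at 0. Of 7 alternatives with a trend, the genotype call of Marco held in 7, of Mpeg1 in 6, of Cd163 in 3 and of Lyz2 in 2. The hepatocyte list had medians of 0.08 and -0.07 with 0 of 11 passing for genotype. The part of either in the transporter ratios was not tested.

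**Figure D3:**
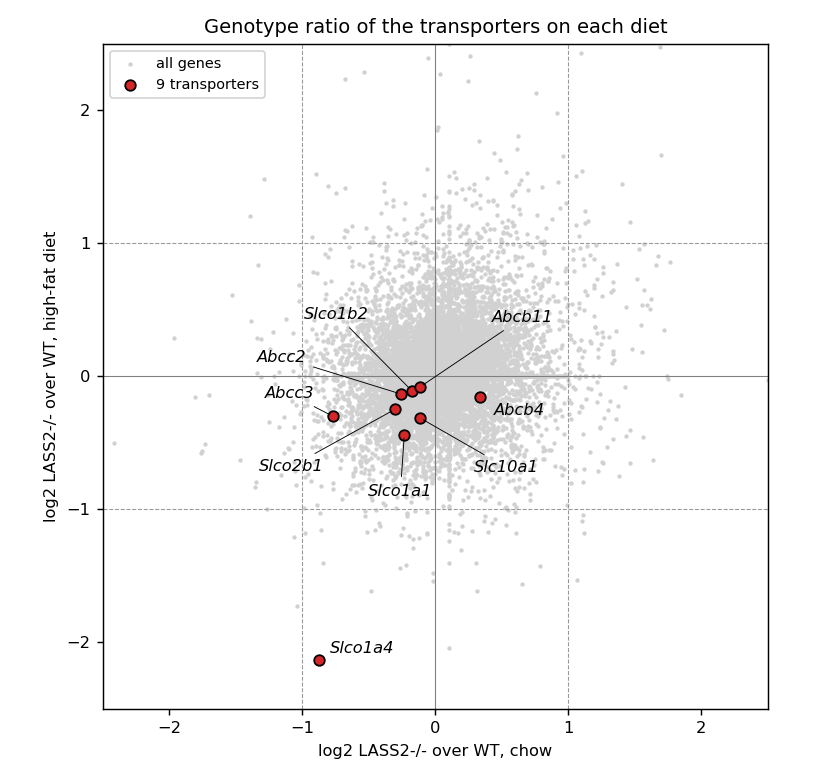
Log2 ratio of LASS2-/- over wild type on chow (horizontal) and on high-fat diet (vertical), for the 9 transporters (red) and all genes that entered (grey, points beyond the axes not shown). Dashed lines mark 2-fold. Slco1a4 lies apart at -0.87 and -2.14, and Abcb4 is the gene with a positive chow ratio, 0.33.

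**Figure D4:**
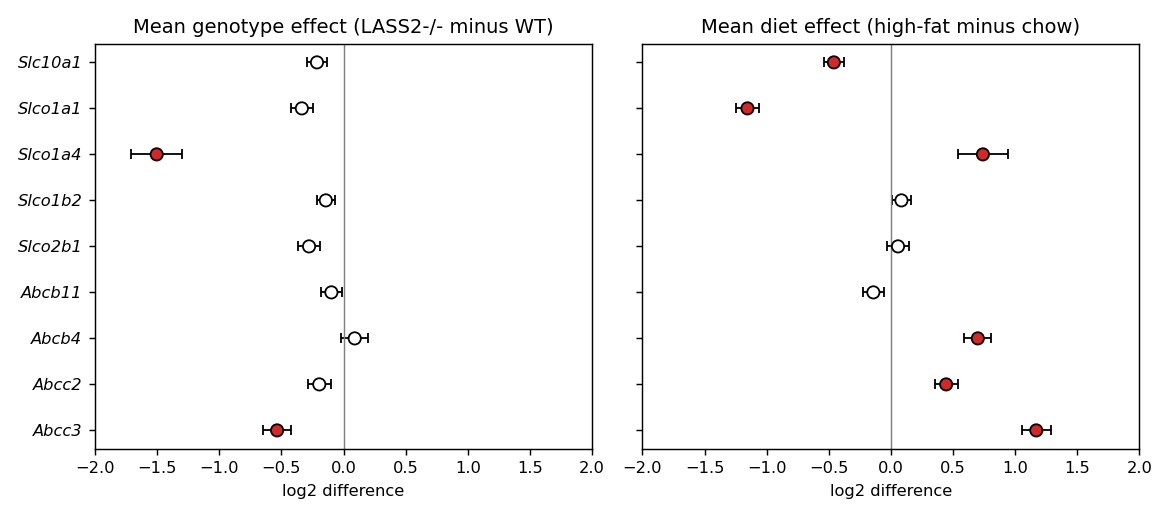
Mean genotype and diet effects of the 9 transporters in log2 from limma's additive fit over 4 arrays. Bars are moderated standard errors, and filled points passed at an adjusted p under 0.05. For genotype, Slco1a4 (-1.50) and Abcc3 (-0.53) are filled, and for diet 6 genes are, from Slco1a1 (-1.15) to Abcc3 (1.17).

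The enzymes of bile acid synthesis moved with diet on both sides. Of 20 measured genes of synthesis and conjugation 4 rose and 2 fell with diet, and 0 passed for genotype. Cyp8b1, the 12-alpha hydroxylase that leads to cholic acid, rose by 1.74 ± 0.10 (limma adjusted p = 9.13e-08), with log2 ratios of 1.71 in wild type and 1.76 in LASS2-/-. Cyp7a1, the rate-limiting enzyme, rose by 1.39 ± 0.11 (limma adjusted p = 2.03e-06). Hsd3b7 rose by 0.76 and Hsd17b4 by 0.47. Cyp2c70, which makes muricholic acids in mice, fell by 1.41 ± 0.11 (limma adjusted p = 1.2e-06). Cyp7b1 of the alternative pathway fell by 0.67. The list's median diet effect was 0.02, as over all genes.

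Other carriers of the same families mostly stayed below the test. Of 8 measured other Slco and Slc10 genes 0 passed for genotype or diet. Slco1a5, a paralog of Slco1a1 and Slco1a4, was near or under the array median on all arrays, at 5.57, 5.18, 6.21 and 3.13 log2 in the order used above. Of 17 other efflux transporters, 1 fell and 0 rose with genotype, and 2 rose and 4 fell with diet. The sterol exporter Abcg5 fell with both, with effects of -0.68 ± 0.12 for genotype (limma adjusted p = 0.0131) and -0.69 ± 0.12 for diet (adjusted p = 0.00132). The genotype call was lost with quantile normalization, with equal medians and with the mean of all probe sets, at an adjusted p of up to 0.101. The other diet effects were -0.60 for its partner Abcg8, -0.38 for the flippase subunit Tmem30a and -0.30 for the cholesterol exporter Abca1. The diet call of Abcg8 was lost with equal medians, and that of Abca1 held in 3 of 7 alternatives with a trend. Abcc4, a pump on the blood side that also exports bile acids, was called for diet, but its log2 ratio was 0.45 in wild type and 2.90 in LASS2-/-. With robust moderation its limma adjusted p was 0.561, and the call was also lost with quantile normalization and with equal medians. The log2 signal of Abcc4, 10.41 on LASS2-/- HFD, stood against 7.51 to 8.02 on the other arrays.

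Among 16 measured receptors and regulators, 0 rose and 2 fell with genotype, and 4 rose and 2 fell with diet. CAR (Nr1i3) fell with the LASS2-/- label (-0.57 ± 0.11, limma adjusted p = 0.0338) and rose with diet by 0.59 (adjusted p = 0.00358). Ahr, the aryl hydrocarbon receptor, fell by 0.52 with the label (limma adjusted p = 0.037) and rose with diet by 1.73. Both genotype calls were lost with quantile normalization, with equal medians, with the mean of all probe sets and with no filter. Ppara rose with diet by 0.39 and Nfe2l2 by 0.38, and the effects of Foxa2 and Hnf4a were -0.91 and -0.32. The diet calls of Nfe2l2 and Hnf4a were lost with quantile normalization, with equal medians and with no filter. The mean of all probe sets lost those of Hnf4a and Ppara, and robust moderation that of Foxa2. The bile acid receptor Nr1h4 had a diet effect of 0.22 ± 0.10 (limma adjusted p = 0.171). Its target Nr0b2, a repressor of bile acid synthesis, had log2 genotype ratios of 0.52 (chow) and -0.99 (high-fat diet) and passed for neither factor.

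Target enzymes of CAR and PXR and of NRF2 were measured beside the transporters. Of 15 CAR and PXR targets, 3 fell and 0 rose with genotype: Cyp2c37 (-1.13 ± 0.11, limma adjusted p = 0.000434), Ces2a (-0.61) and Cyp2c29 (-0.50). With diet 3 of the 15 rose and 4 fell. Cyp2b10 was under the array median on both chow arrays and read 8.25 on WT HFD and 8.04 on LASS2-/- HFD, and Cyp2b9 rose by 3.38. Cyp2b13, also called for diet, was under the array median on both chow arrays too, and its diet ratios against that floor were 2.82 in wild type and 0.68 in LASS2-/-. The falling ones included Cyp2c54 (-1.02), Ces2a (-0.88) and Cyp2c29 (-0.65). Of 15 NRF2 targets, 9 rose and 0 fell with diet, with a median of 0.80, among them Cbr3 (3.07), Gstm3 (1.72), Srxn1 (1.66), Nqo1 (1.46), Aox1 (1.17) and Ugdh (0.86). These means hide unequal log2 diet ratios in wild type and LASS2-/-. The pairs were 1.61 and 4.52 for Cbr3, 1.36 and 2.07 for Gstm3, and 1.04 and 2.28 for Srxn1. They were 0.71 and 2.21 for Nqo1, 1.27 and 1.08 for Aox1, and 0.74 and 0.98 for Ugdh. With genotype 3 of the 15 rose, Cbr3, Srxn1 and Gstm3, each lost with robust moderation and with other settings. The Gstm3 call held in 3 of 7 alternatives with a trend, that of Cbr3 in 2 and that of Srxn1 in 1. The log2 genotype ratio of Cbr3 was 0.76 for the chow pair but 3.68 under high-fat feeding. For Srxn1 it was 0.44 and 1.68, and for Gstm3 0.70 and 1.40. With robust moderation Cbr3, Srxn1 and Nqo1 also lost the diet call.

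Slco1a1 was set beside other genes that growth hormone keeps higher in male liver. Of 14 measured, 9 fell and 1 rose with diet, and 0 passed for genotype. Hsd3b5, a steroid enzyme of male liver, fell by 5.13 ± 0.24 (limma adjusted p = 3e-08, 0.165 with robust moderation). The others named by size were Ugt2b38 (-2.46), the arachidonic acid hydroxylase Cyp4a12a (-1.11), Serpina12 (-0.94), Susd4 (-0.69) and Nudt7 (-0.67). The 1 that rose was Elovl3, by 0.60 (limma adjusted p = 0.00133). Of 14 genes higher in female liver 4 rose and 0 fell with diet, among them Cyp2b9, Slc22a29 (3.21) and Slc22a27 (2.54). With genotype 3 of these rose, Sult1e1, Cyp17a1 and Ntrk2. Over the genes of these lists and of the cell markers, 30 of 49 diet calls and 3 of 16 genotype calls named by size held under every alternative with a trend.

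**Figure D5:**
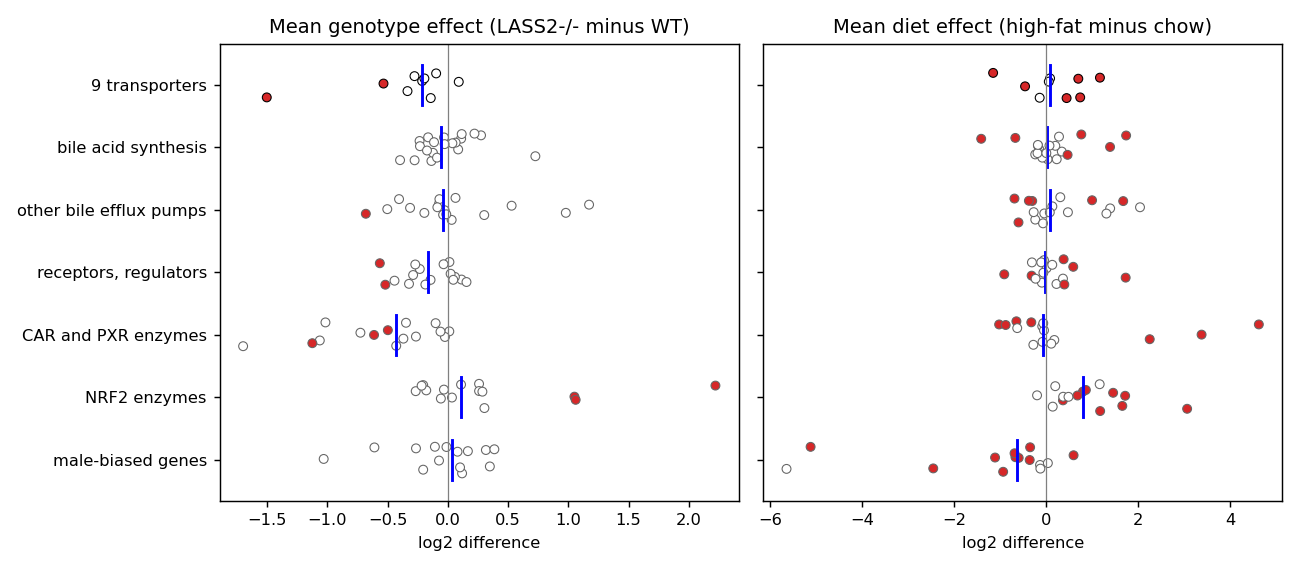
Mean genotype and diet effects in log2 of the 9 transporters and of 6 gene lists. Each point is a gene, filled where it passed limma at an adjusted p under 0.05, and blue bars are list medians. The transporters' diet effects lie on both sides of 0, while NRF2 enzymes have a median of 0.80 and male-biased genes of -0.63.

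The genes most like each wide-ranging transporter over the 4 arrays were ranked by the root mean square distance between centred log2 profiles. For Slco1a1 they were Rasal2 (0.059), 0610040F04Rik (0.060) and Golga7b (0.068), where the median distance of all genes was 0.65. Of these, 0610040F04Rik was dim, at 6.50 on WT chow and under the median on the other arrays, and Golga7b was under it on LASS2-/- HFD. For Abcc3 they were Rnf43 (0.038), Chchd6 (0.067) and Mfsd9 (0.072), with a median of 0.68, and Mfsd9 was under the array median on LASS2-/- chow. For Slco1a4 the nearest were Dcst2 (0.15), Kcnh1 (0.21) and Tcf24 (0.21), with a median of 0.92, and these 3 were dim, with signals of at most 7.19 log2. Each was above the array median on WT HFD only, where Slco1a4 was highest, and entered the comparisons through that array alone. With 4 arrays such likeness is a description.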

How the data were processed

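Liver RNA was hybridised to Affymetrix arrays, 1 for each of 4 groups. Per the labels, the authors deposited log2 values, 1 signal for each probe set and array, from MAS5 per the submitters' processing notes. Its version and scaling target were not found in those notes. Of 45037 probe sets 34945 had a single symbol, updated through gene numbers to the GRCm38.p6 gene table (34741 matched), 932 had several and 9160 were not named here. A probe set was kept if it reached its array's median on at least 1 array, and the brightest kept one stood for the gene (12493 genes). Ratios were taken after raising each array to its own median, with 2-fold as the threshold and no test, since each rests on 1 array per group. Mean effects were tested with limma 3.58.1 (R 4.3.3) in an additive model of diet and genotype, with 3 coefficients, 1 residual degree of freedom, moderation with a trend and a prior weight of 12.74 degrees of freedom. The code was tested on simulated data. Every member was named. From each list up to 6 genes passing per factor were named, ranked by size, plus Cers2. The 3 most similar genes were given for members spanning at least 1 log2. Slco1a5, Nr1h4, Nr0b2, Alb and Elovl3 were added after their values were seen. Members and lists were chosen with earlier results of these data known. Alternatives were quantile normalization, equal medians, other probe set rules, filter, floor, threshold and moderation. Tables and plots were made in Python 3.11.15 (pandas 2.3.3, numpy 2.4.6, matplotlib 3.10.9). With 4 arrays in all, their number limits precision.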

Additional observations from a re-analysis of the deposited data

Results flagged for a closer look

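Abcb4 had genotype ratios of opposite sign on the 2 diets, 0.33 (log2) for the chow pair and -0.15 for the high-fat pair. The difference was not tested, since each ratio rests on 1 array per group.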

How the results depend on the processing

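Counts of the 9 transporters depended on the settings as follows. For the mean genotype effect, 2 passed limma as reported, 0 with quantile normalization, 0 without trend, 0 with robust moderation, and 1 each with equal medians, with the mean of all probe sets, with every probe set as its own feature and with no filter. For the mean diet effect, 6 passed as reported and 0 without trend. The diet call of Slco1a4 held in 2 of 9 alternatives. The other diet calls held in every alternative with a trend where the gene had a value. At a 1.5-fold threshold, 2 genotype ratios were called on chow in place of 0, and 4 diet ratios in wild type in place of 2. The mean of all probe sets, dim ones included, turned the Slco1b2 effects to 0.04 for genotype and -0.032 for diet. Of 160 member effects under alternatives, 136 kept their direction and side of the threshold, 22 lost the call and 2 reversed. Many alternatives could not change a member ratio. With no filter, the lower floor or every probe set as its own feature, the same bright probe sets were read and the ratios were identical. The mean of all probe sets could not change a gene with 1 probe set. Of 310 member ratios, these included, 304 moved by less than the moderated spread of a difference. The 6 others were 5 of Slco1b2 and the quantile-normalized diet ratio of Slc10a1 in LASS2-/-. The causes were not tested. Over all genes, 114 passed for genotype as reported, 23 with quantile normalization, 22 with equal medians, 39 with the mean of all probe sets, 72 with every probe set, 52 with no filter and 0 without trend. For diet, 1412 passed as reported, 898 with equal medians, 719 with the mean of all probe sets and 0 without trend. Genes at least 2-fold apart, 198 and 245 for genotype on chow and high-fat diet and 421 and 625 for diet, became 1789, 1576, 1858 and 2280 once the floor was each array's 25th percentile, where more genes enter. They became 369, 420, 735 and 1008 with every probe set, and 1129, 1131, 1601 and 2167 at 1.5-fold. Differences of the genotype ratio between diets, 539, became 2926 at that lower floor and 1024 when each probe set counted. Without probe sets ending in _x_at or _s_at Abcc2 had no value. Leaving out a replicate was not possible. No paired analysis was possible because each group has 1 array.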
